A study of Mus musculus with 17 samples.

Results

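The 10 genes described here are mouse imprinted genes, which are expressed mainly or only from the copy inherited from one parent: *Kcnq1ot1*, *Kcnq1*, *Cdkn1c*, *Mest*, *Peg3*, *Dlk1*, *Meg3*, *H19*, *Igf2* and *Grb10*. They were taken by Ensembl gene identifier from the 55401 genes in the files, and all 10 were found and passed the filter on low values in each fit. The list was chosen with earlier results of these data in view, and *Kcnq1ot1* was chosen by its difference between U9-KO and WT males, so values of the 10 genes in that contrast are given as a description without a test.

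White fat from beside the gonads, a visceral depot called perigonadal white adipose tissue (pWAT), was profiled by RNA-seq to ask how loss of the long noncoding RNA *U90926* affects fat. Whole pWAT of 10 females (5 WT, 5 U9-KO) and 7 males (3 WT, 4 U9-KO) gave 1 library per mouse. All 17 mice were C57BL/6J littermates from crosses of heterozygous parents and ate standard chow. WT mice carried both copies of *U90926*, and U9-KO mice were homozygous for a constitutive deletion of all 5 of its exons as the study counts them. The study's methods give 16 weeks as the age at collection, while its scheme of the phenotyping pipeline runs to 19 weeks. The age is therefore not settled here. That pipeline included food withdrawal and glucose tolerance tests, and the labels give no treatment.

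Imprinted genes lie in clusters in which a stretch of DNA, methylated on one parental copy in the germ line, sets which copy of each neighbour is used. Long noncoding RNAs such as *Kcnq1ot1*, *H19* and *Meg3* are made from one parental copy, while protein-coding neighbours such as *Cdkn1c*, *Igf2* and *Dlk1* are made from the other. Many of these genes act on fetal growth, and in fat *Mest* is known for varying with fat pad expansion and *Dlk1* for marking preadipocytes. Total RNA levels as measured here do not separate the parental copies, and methylation was not measured.

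The values are normalized counts: the authors scaled the reads of each gene by a size factor per library and rounded the result. They summed to 20243688 to 28620744 per library, and the depth in reads is unknown. *U90926*, the targeted gene, was at 1 normalized count in 2 WT libraries (female 3, male 2) and at 0 in the other 15, which at this depth gives no check of the genotype labels. Markers of fat cells were present in all libraries, but 2 female libraries stood apart: WT female 4 and U9-KO female 1 had 127714 and 141883 normalized counts over 14 ovary and luteal markers, against 6029 to 39144 in the other females and 797 to 1705 in males. The sum over 5 oviduct markers was highest in WT female 3 (8496) and U9-KO female 4 (2585) and was 286 to 1279 in the other females and 19 to 33 in males. In whole tissue, fewer cells of a type and less RNA per cell cannot be told apart.

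Promoter sequences are shown for 3 genes because their starts lie in or near the DNA that carries the imprint or, for *Kcnq1ot1*, inside the neighbour it is read against. The RefSeq promoter table used here, on GRCm38.p6, matched 7 of the 10 genes. Each line gives the 250 bases before the start, 5′ to 3′ on the strand of the gene, with CpG dinucleotides, the bases at which DNA methylation occurs, in capitals.
Kcnq1ot1, chr7:143296548-143296797, minus strand: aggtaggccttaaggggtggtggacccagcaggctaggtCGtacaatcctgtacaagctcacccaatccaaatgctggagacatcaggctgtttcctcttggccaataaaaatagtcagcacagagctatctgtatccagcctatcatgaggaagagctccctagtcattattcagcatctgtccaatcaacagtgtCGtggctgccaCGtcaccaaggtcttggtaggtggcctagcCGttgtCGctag
Mest, chr6:30737800-30738049, plus strand: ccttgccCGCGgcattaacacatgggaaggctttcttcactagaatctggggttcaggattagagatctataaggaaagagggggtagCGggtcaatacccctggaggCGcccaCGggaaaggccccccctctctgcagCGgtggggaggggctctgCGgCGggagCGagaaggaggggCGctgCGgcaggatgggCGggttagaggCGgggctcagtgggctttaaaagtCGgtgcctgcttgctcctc
Meg3, chr12:109540746-109540995, plus strand: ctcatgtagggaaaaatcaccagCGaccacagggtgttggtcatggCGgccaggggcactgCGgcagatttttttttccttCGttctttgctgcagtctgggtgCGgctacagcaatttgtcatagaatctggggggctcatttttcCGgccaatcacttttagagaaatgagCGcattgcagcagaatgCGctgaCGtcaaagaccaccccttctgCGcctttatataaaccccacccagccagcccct

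The *Mest* window held 14 CpG dinucleotides, the *Meg3* window 10 and the *Kcnq1ot1* window 5, against a median of 6 over the same 250 bases of all 32851 promoters in that table. As many as 14 were found in 29.4% of them, as many as 10 in 37.8% and as many as 5 in 55.6%. The *Kcnq1ot1* window lies inside *Kcnq1* and touches 0 bases of its exons, so it is intronic there. It held CCAAT, read on both strands, 3 times, and 2.79% of the promoter windows held it as often.

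*H19* and *Mest*, the genes with the largest sex difference in each direction, also host microRNAs, whose mature RefSeq sequences are printed 5′ to 3′ with the seed, bases 2 to 8, in capitals. Both arms of miR-675 lie in an exon of *H19*, and both arms of miR-335 lie in an intron of *Mest*. Levels of the mature microRNAs were not measured in these poly(A) libraries.
miR-675-5p: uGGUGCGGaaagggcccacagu
miR-675-3p: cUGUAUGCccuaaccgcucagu
miR-335-5p: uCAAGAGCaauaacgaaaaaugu
miR-335-3p: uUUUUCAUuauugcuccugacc

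*Kcnq1ot1* is the long noncoding RNA of the *Kcnq1* domain, made from the paternal copy and known for silencing its neighbours on that copy. It lies on the minus strand at chr7:143203458-143296549 of GRCm38, within *Kcnq1* and opposite to it. In WT females its normalized counts were 323, 311, 263, 262 and 220, and in U9-KO females 350, 304, 218, 259 and 268. The female groups overlapped across nearly their whole range. In WT males the counts were 213, 189 and 187, and in U9-KO males 330, 272, 308 and 300. Each U9-KO male was above each WT male.

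The male means were 196 ± 14.5 in 3 WT mice and 302.5 ± 24.0 in 4 U9-KO mice (± SD), a log2 difference of 0.62 (SE 0.11), which is the contrast that brought the gene to the list. In females it was 276 ± 41.6 in WT and 280 ± 49.8 in U9-KO (SD, n = 5 each), a log2 difference of 0.02 (SE 0.15, 95% confidence interval −0.31 to 0.34, limma adjusted p = 1). In the interaction of sex and genotype, limma called 0 of 26289 genes, with 922 at an unadjusted p under 0.05.

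Other long RNAs kept in the nucleus were set beside *Kcnq1ot1* as a list of 10, of which 2 are named after their values were seen. *Malat1*, the most common nuclear RNA of many cells, had 8493, 7560 and 8477 normalized counts in WT males and 20001, 10470, 14783 and 7396 in U9-KO males, and those groups overlapped. *Airn*, the noncoding RNA of the *Igf2r* domain, had 201 to 259 in WT males and 188 to 275 in U9-KO males. Of the 10 RNAs, 8 had a positive and 2 a negative log2 difference in males, with a median of 0.15, beside a median of 0.00065 over all genes. In the sex contrast 7 of the 10 passed, beside 39.0% of all genes. Of these, 6 were higher in females and 1 in males, beside 22.4% and 16.6% of all genes. Markers of leukocytes summed to 14977 to 25021 in WT males and 10539 to 13737 in U9-KO males, and all 6 of them had a negative log2 difference. The part of either in the *Kcnq1ot1* values was not tested.

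*Kcnq1* encodes a potassium channel subunit and is read on the plus strand at chr7:143106362-143427042. Its normalized counts were 59, 82, 67, 101 and 65 in WT females and 89, 62, 77, 65 and 71 in U9-KO females. In males they were 74, 93 and 70 in WT and 52, 66, 55 and 67 in U9-KO. The female groups overlapped, and every U9-KO male was below every WT male, by a margin of 70 against 67 at the nearest pair. The log2 difference was −0.02 (SE 0.19, adjusted p = 1) in females and −0.39 (SE 0.19) in males, the latter without a test.

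The ratio of *Kcnq1ot1* to *Kcnq1* normalized counts had a median of 3.79 in WT females (2.59 to 5.47) and 3.93 in U9-KO females (2.83 to 4.90). In males it was 2.67 in WT (2.03 to 2.88) and 5.04 in U9-KO (4.12 to 6.35). The male ranges did not overlap, while the female ranges nearly coincided. The male gap follows from the values of the 2 genes given above, and *Kcnq1ot1* was chosen by this contrast. It is therefore not a further result. The exons of the pair share 121 bases on opposite strands, 2.96% of the exon length of *Kcnq1*, and the counting was not stated to use strand, so reads there cannot be assigned to one gene with certainty. Intronic reads do not count for *Kcnq1* but would count for *Kcnq1ot1*, whose annotated exon spans its whole length of 93.1 kb.

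*Cdkn1c*, which encodes the cell cycle inhibitor p57, lies on the minus strand at chr7:143458339-143461050, 161789 bp from *Kcnq1ot1*. Its normalized counts were 299 to 657 in WT females, 350 to 695 in U9-KO females, 252 to 406 in WT males and 251 to 376 in U9-KO males. The genotypes overlapped in each sex, with log2 differences of −0.03 (SE 0.24, adjusted p = 1) in females and −0.16 (SE 0.18) in males. Across mice of one sex, centred by genotype, *Cdkn1c* and *Kcnq1ot1* had a Pearson r of −0.000781 in females (Spearman rho 0.0851, permutation p = 0.998 and 0.818, adjusted p = 0.998 and 0.909, n = 10) and −0.282 in males (rho −0.179, exact permutation p = 0.533 and 0.713, adjusted p = 0.761 and 0.891, n = 7).

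**Figure D1:**
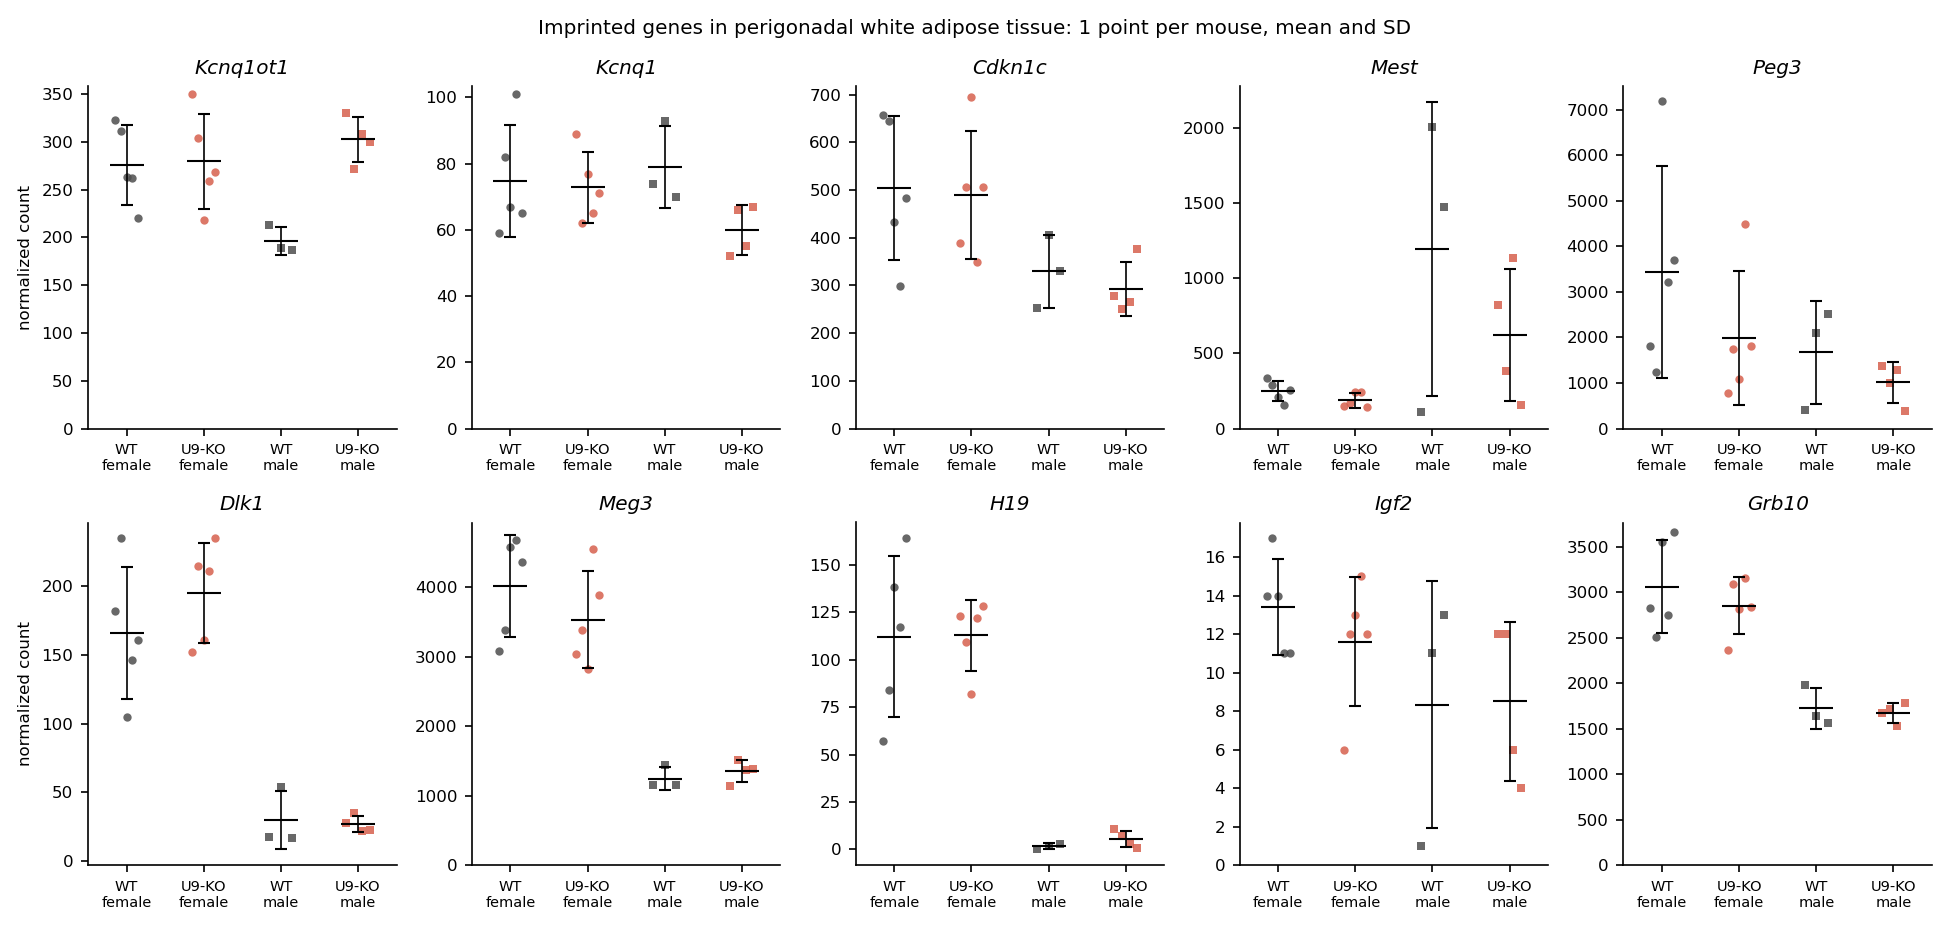
Normalized counts of the 10 imprinted genes in each of the 17 mice, by genotype and sex, on linear axes; each point is 1 mouse, grey is WT, red is U9-KO, circles are females, squares are males, and bars give the mean and SD. *Kcnq1ot1* is the only one of the 10 genes whose U9-KO males all lie above the WT males, *Kcnq1* the only one whose U9-KO males all lie below them, and *Dlk1*, *Meg3*, *H19* and *Grb10* are lower in every male than in any female.

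The comparison of U9-KO with WT females asked whether loss of *U90926* changed these genes in a contrast that did not bring them to the list. 0 of the 10 genes passed the threshold of an adjusted p under 0.05 (limma, Benjamini-Hochberg), beside a background of 0 of 24825 genes tested, 0%, in this comparison, where 553 had an unadjusted p under 0.05. In 0 of the 10 genes did the female genotypes fail to overlap, beside 0.238% of all genes tested. The median log2 difference over the 10 genes was −0.06, with 3 positive and 7 negative, beside a median of 0 over all genes.

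*Peg3* and *Mest*, genes made from the paternal copy, had the female log2 differences furthest from 0, and neither passed. *Peg3*, a zinc finger gene at chr7:6703892-6730431 on the minus strand, had 1807, 1251, 7185, 3212 and 3712 normalized counts in WT females and 779, 1737, 1078, 4498 and 1818 in U9-KO females. WT female 3 and U9-KO female 4 were the highest of their groups, and they are also the libraries with the highest oviduct marker sums; the part of that tissue in the *Peg3* values was not tested. The log2 difference of −0.80 (SE 0.51, 95% confidence interval −1.93 to 0.32, adjusted p = 1) was smaller than the spread between mice, and it became −0.47 when WT female 3 was left out and −1.17 when U9-KO female 4 was left out.

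*Mest*, a gene of the hydrolase family at chr6:30723547-30748465 on the plus strand, had 334, 291, 210, 156 and 256 in WT females and 147, 171, 240, 242 and 144 in U9-KO females. These groups overlapped, with a log2 difference of −0.39 (SE 0.23, 95% confidence interval −0.89 to 0.11, adjusted p = 1). Differences of the other genes were nearer 0. *Grb10*, an adaptor that dampens insulin receptor signalling, had −0.09 (−0.37 to 0.18), *Meg3* −0.18 (−0.53 to 0.16), *Dlk1* 0.26 (−0.20 to 0.72), *H19* 0.09 (−0.50 to 0.67) and *Igf2* −0.23 (−0.89 to 0.43), each as a log2 difference with its 95% confidence interval.

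In males, 0 of 21930 genes tested passed the threshold, 0% (limma), with 1667 at an unadjusted p under 0.05. The study itself used DESeq2 on read counts and reported genes that differed in each sex at an adjusted p under 0.05. The counts of 0 in each sex here belong to the limma fits on rounded normalized counts. Without WT male 1, 71 genes passed. Normalized counts did not overlap between the male genotypes for 2 of the 10 genes, *Kcnq1ot1* and *Kcnq1*, beside 7.60% of all genes tested; since this contrast helped to choose the list, nothing is read from that share. The remaining 8 genes overlapped. Their log2 differences were −0.49 (SE 0.95) for *Mest*, −0.50 (SE 0.62) for *Peg3*, 0.05 (SE 0.41) for *Dlk1*, 0.12 (SE 0.12) for *Meg3*, −0.04 (SE 0.10) for *Grb10*, 1.20 (SE 0.75) for *H19* and 0.34 (SE 0.70) for *Igf2*, beside the −0.16 for *Cdkn1c*. Single WT males set several of these: the difference was −1.82 for *Mest*, −1.34 for *Peg3* and −0.56 for *Igf2* without WT male 1, 0.29 for *Mest* and 0.58 for *Dlk1* without WT male 2, and −0.009 for *Peg3*, −0.23 for *Dlk1* and 0.84 for *Igf2* without WT male 3. *H19* and *Igf2* had at most 11 and 13 normalized counts in any male.

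**Figure D2:**
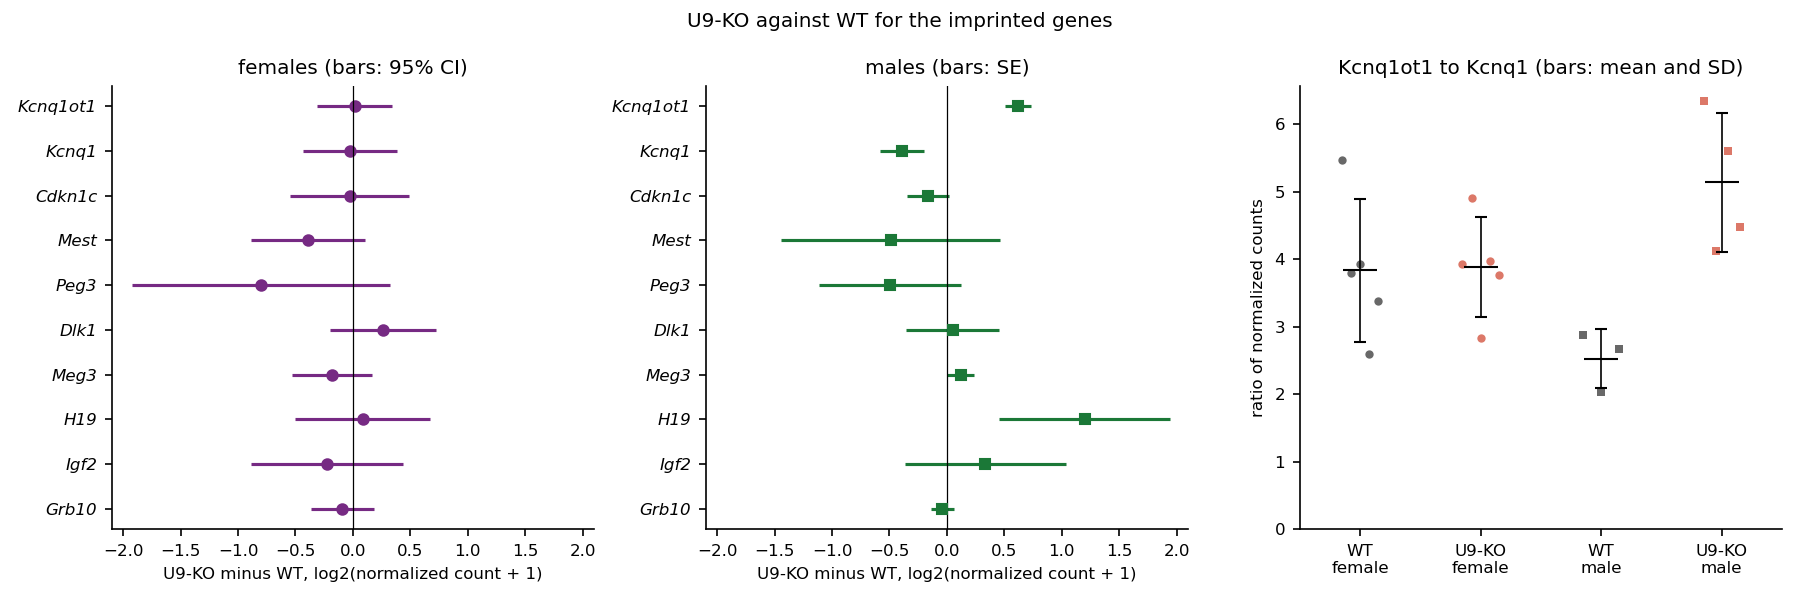
Differences between U9-KO and WT mice on the log2(normalized count + 1) scale for the 10 genes in females (left, bars are 95% confidence intervals) and in males (middle, bars are SE, described without a test), and the ratio of *Kcnq1ot1* to *Kcnq1* normalized counts in each mouse (right, bars are mean and SD). All 10 female intervals include 0, and the ratio in U9-KO males, 4.12 to 6.35, lies above that in WT males, 2.03 to 2.88. That gap follows from the values of the genes themselves, since every U9-KO male was higher for *Kcnq1ot1* and lower for *Kcnq1*.

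Over all genes, the sex contrast, which held more mice, gave far more calls than the genotype contrasts. The rule that chose the 10 genes did not use the sex contrast, which was fitted over all 17 mice on one scale with genotype as a covariate. The list was still chosen with earlier results of these data in view, so its shares beside all genes are descriptions. 6 of the 10 genes passed the threshold, 60.0%, beside 39.0% of the 26289 genes tested. 5 of the 10 were higher in females, beside 22.4% of all genes, and 1 was higher in males, beside 16.6%. The median difference, male minus female, was −0.65 over the 10 genes and −0.06 over all genes on the log2 scale. Ranges of the sexes did not overlap for 4 of the 10 genes, beside 11.4% of all genes tested.

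The difference was largest for *H19*, a maternally expressed long noncoding RNA at chr7:142575529-142578143 on the minus strand. Females had 57, 84, 138, 117 and 164 normalized counts in WT and 123, 109, 82, 122 and 128 in U9-KO. Males had 0, 2 and 3 in WT and 11, 7, 3 and 1 in U9-KO. Every male was below every female, and the fitted difference was −4.83 (SE 0.37, adjusted p = 1.94e-08), or 28.5-fold on the log2(normalized count + 1) scale, which understates the ratio of values near 0. The male level was close to the limit of detection.

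*Igf2*, the growth factor gene next to *H19* and expressed from the other parental copy, lies on the minus strand at chr7:142650766-142666816, 72622 bp away. It had 6 to 17 normalized counts in females and 1 to 13 in males, with a difference of −0.63 (SE 0.36, adjusted p = 0.187). Its ranges overlapped between the sexes. The annotated gene *Gm49394*, a protein-coding locus on the same strand, covers 3596 bases of the *Igf2* exons, 62.8% of their length, and was listed at 0 in all libraries. The counting mode that the study states gives a read that fits both genes to neither, so the *Igf2* values may cover only the rest of its exons.

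*Dlk1* and *Meg3* are neighbours on chromosome 12, at 109452823-109463336 and 109541001-109571726 on the plus strand, 77664 bp apart. *Dlk1*, a paternally expressed transmembrane protein of preadipocytes, had 182, 235, 105, 146 and 161 normalized counts in WT females and 152, 215, 161, 211 and 235 in U9-KO females. Males had 18, 54 and 17 in WT and 28, 35, 22 and 23 in U9-KO. All males were below all females, with a difference of −2.60 (SE 0.22, adjusted p = 4.71e-08), or 6.06-fold. WT male 2, at 54, stood above the other males, and without it the difference was −2.82.

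*Meg3*, the maternally expressed long noncoding RNA of the same domain, had 3079 to 4672 normalized counts in WT females, 2821 to 4548 in U9-KO females, 1146 to 1435 in WT males and 1141 to 1510 in U9-KO males. It was lower in all males than in any female, with a difference of −1.40 (SE 0.12, adjusted p = 4.66e-08), or 2.63-fold. A coding gene and a noncoding gene of opposite parental origin were thus both higher in females. Their levels did not pass the test of a relation across mice within a sex: centred by genotype, r was −0.147 in females (rho −0.224, permutation p = 0.684 and 0.537, adjusted p = 0.855 and 0.767, n = 10) and 0.677 in males (rho 0.643, exact permutation p = 0.0938 and 0.139, adjusted p = 0.469 and 0.59, n = 7). The male r was −0.258 without the 2 mice farthest from the median.

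*Grb10*, at chr11:11930508-12038683 on the minus strand, had 2361 to 3660 normalized counts in females and 1526 to 1976 in males. Its ranges did not overlap, and the difference was −0.67 (SE 0.09, adjusted p = 6.69e-06), or 1.59-fold. *Cdkn1c* was also higher in females, by 1.45-fold, at −0.54 (SE 0.17, adjusted p = 0.0145), with overlapping ranges. *Peg3* was at −0.88 (SE 0.44, adjusted p = 0.121), which did not pass. *Kcnq1ot1* and *Kcnq1* had differences of −0.03 (95% confidence interval −0.28 to 0.22, adjusted p = 0.857) and 0.01 (−0.27 to 0.30, adjusted p = 0.958). Both are fits over WT and U9-KO mice together. For *Kcnq1ot1* the difference was −0.36 (SE 0.15) in WT mice only and 0.24 (SE 0.14) in U9-KO mice only. For *Kcnq1* it was 0.21 (SE 0.22) and −0.16 (SE 0.17). The male genotype contrast enters these splits, so they are given without a test.

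*Mest* was the 1 gene of the 10 that was higher in males. WT males had 108, 2009 and 1476 normalized counts and U9-KO males 822, 381, 1134 and 159, while the 10 females lay between 144 and 334. 5 of the 7 males were above every female and 1 was below every female, so the sexes differed in spread as well as in level. The highest male was 18.6 times the lowest, against 2.32 times in females. The difference was 1.56 (SE 0.47, adjusted p = 0.0135), or 2.96-fold, and it ranged from 1.25 without WT male 2 to 2.08 without WT male 1. The 3′ end of *Mest* overlaps *Copg2* on the opposite strand over 912 exon bases, 23.1% of the *Mest* exon length, and *Copg2* itself differed by 0.36 (adjusted p = 0.000761).

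**Figure D3:**
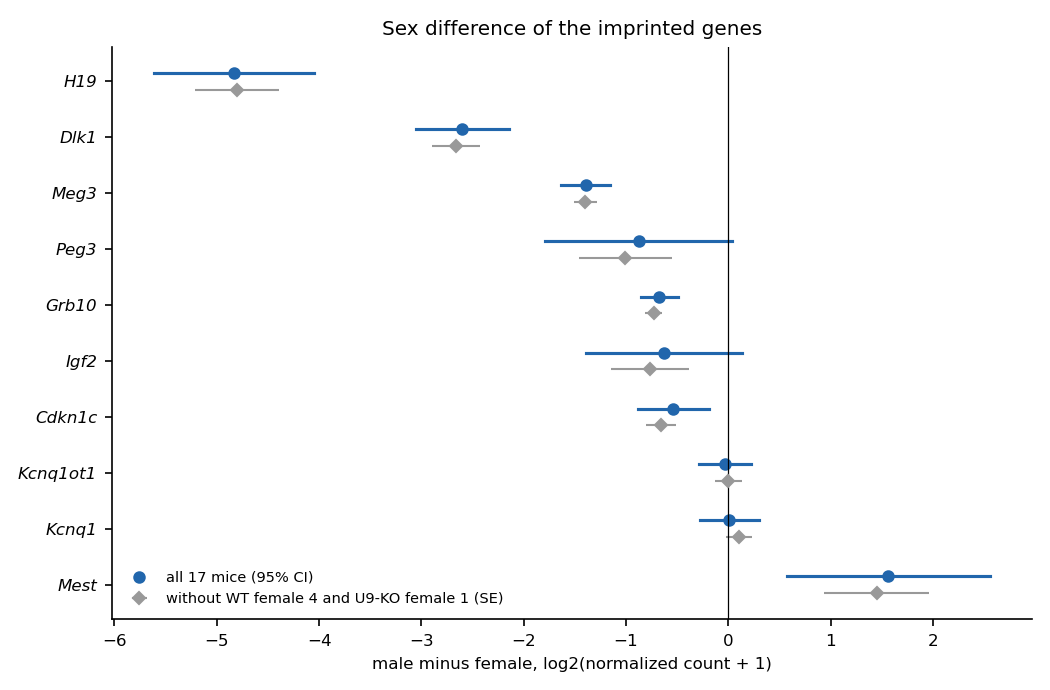
Difference between males and females on the log2(normalized count + 1) scale for each of the 10 genes, ordered by its size; blue points use all 17 mice with 95% confidence intervals, and grey points leave out the 2 female libraries with the highest ovary markers, with SE. *H19* is at −4.83, *Dlk1* at −2.60 and *Meg3* at −1.40, *Mest* is the 1 gene called higher in males, at 1.56, and the grey points lie close to the blue ones.

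Tissue beside fat moved with this contrast. Of 14 ovary and luteal markers 12 were higher in females and 0 in males, of 5 oviduct markers all 5 were higher in females, and of 6 mesothelium markers 3. The oviduct markers were near 0 in males, where 4 of 5 never passed 10 normalized counts, as were 7 of the 14 ovary markers. Of 9 adipocyte markers 6 were higher in males, and of 9 adipocyte progenitor markers 4 were higher in females. All these marker counts stand beside 22.4% of all genes higher in females and 16.6% higher in males. Without WT female 4 and U9-KO female 1, the libraries richest in ovary markers, the differences were −4.80 for *H19*, −2.66 for *Dlk1*, −1.40 for *Meg3*, −0.73 for *Grb10*, −0.66 for *Cdkn1c* and 1.45 for *Mest*, and all 6 passed the threshold. WT female 1 had the lowest ovary marker sum of the females, 6029, which was still above the 797 to 1705 of males. It had 57 for *H19*, the lowest of the females, 182 for *Dlk1* and 3079 for *Meg3*, each above every male. The part of other tissue that remains in the female libraries was not tested.

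WT mice alone gave the same directions for these 6 genes, but *Cdkn1c* (−0.46, adjusted p = 0.237) and *Mest* (1.62, adjusted p = 0.174) no longer passed with 5 females and 3 males. The choice of scale changed the balance of calls over all genes: 4368 genes were higher in males and 5895 in females as fitted, 2860 and 7617 on the deposited scale, and 5743 and 4658 after quantile normalization, with medians over all genes of −0.06, −0.16 and 0.07. The 6 calls held on each scale, and after quantile normalization *Kcnq1* was also called higher in males (0.39, adjusted p = 0.0282).

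Levels were compared between genes per kb of annotated exon. In females the means were 325 normalized counts per kb for *Grb10*, 243 for *Cdkn1c*, 209 for *Meg3* and 203 for *Peg3*, followed by 55.5 for *Mest*, 45.7 for *H19*, 31.9 for *Dlk1* and 18.0 for *Kcnq1*, and last 2.98 for *Kcnq1ot1* and 2.18 for *Igf2*. Every neighbour in this order overlapped in range except *Kcnq1* and *Kcnq1ot1*. In males the order began with *Mest* at 220.5, *Grb10* at 186, *Cdkn1c* at 151, *Peg3* at 97.2 and *Meg3* at 72.2, all overlapping their neighbours. A gap on either side set off *Kcnq1* at 16.7, and *Dlk1* at 4.98, *Kcnq1ot1* at 2.76, *H19* at 1.57 and *Igf2* at 1.47 followed with overlapping ranges. *Mest* thus took rank 5 in females and rank 1 in males, and *H19* ranks 6 and 9. The values per kb of *Igf2* use its full exon length, of which 62.8% is shared with *Gm49394* and may not have been counted. Its last place in both orders, and the ranks next to it, are therefore uncertain.

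Neighbours of each gene in its domain were counted from a fixed list. The counts of each domain, here and below, stand beside 39.0% of all genes called in the sex contrast. Of all genes, 22.4% were higher in females and 16.6% in males. No domain was tested against these shares, and nothing is read from the number of calls in it. In the *Kcnq1* domain 6 of 9 tested neighbours passed, 4 higher in females and 2 higher in males. The 3 most abundant were *Cd81*, a tetraspanin (−0.28, adjusted p = 0.00726), *Nap1l4*, a histone chaperone (0.22, adjusted p = 0.0136), and *Osbpl5*, an oxysterol-binding protein (−0.54, adjusted p = 2.62e-06), as differences male minus female. The genes that were higher in males lay on the same side of *Kcnq1ot1* as *Cdkn1c* and *Osbpl5*, which were higher in females. Directions thus mixed along the domain. In this fit over both genotypes *Kcnq1ot1* and *Kcnq1* at its centre had the differences nearest 0, while within each genotype theirs lay further from 0.

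**Figure D4:**
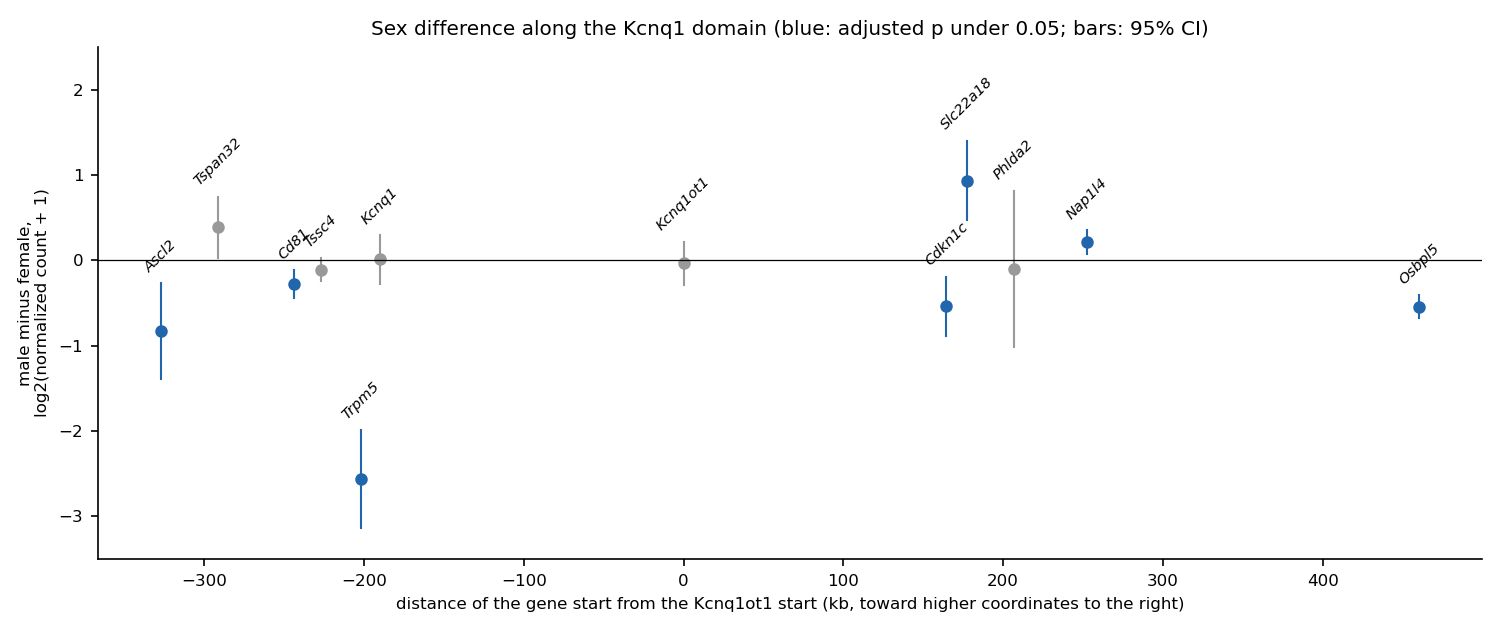
Difference between males and females on the log2(normalized count + 1) scale for 12 genes of the *Kcnq1* domain against the distance of each gene's start from the start of *Kcnq1ot1* in kb; points are fitted differences, bars are 95% confidence intervals, and blue marks an adjusted p under 0.05. Genes that were higher and lower in males lie side by side, and *Kcnq1ot1* at 0 and *Kcnq1* at −190.2 kb are near no difference over both genotypes together.

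Of 6 tested neighbours of *Dlk1* and *Meg3* 3 passed, all higher in females: *Rian* (−1.71, adjusted p = 6.06e-07), a noncoding RNA downstream of *Meg3* that hosts small nucleolar RNAs, *Mirg* (−1.39, adjusted p = 5.25e-06), a microRNA host, and *Begain* (−1.51, adjusted p = 5.13e-07). Around *H19* and *Igf2* 4 of 6 passed, all higher in females: *Lsp1*, a leukocyte protein gene (−0.95, adjusted p = 0.000472), *Mrpl23*, *Tnni2* and *Tnnt3*, the last 2 being troponin genes of skeletal muscle. Around *Peg3* both neighbours tested passed, *Zim1* and *Usp29*, and both were higher in females. Around *Mest* 2 of 4 passed, both higher in males, namely *Copg2*, a coatomer subunit, and *Klf14*, a transcription factor gene (1.74, adjusted p = 0.00544). Around *Grb10* 2 of 4 passed, *Cobl* higher in females (−0.94, adjusted p = 0.000563) and *Ikzf1*, a lymphocyte transcription factor gene, higher in males (0.67, adjusted p = 0.00175). *Mirg*, *Mrpl23*, *Tnni2*, *Tnnt3* and *Usp29* are named here after their values were seen. The highest 2 values of *Rian*, *Lsp1*, *Tnnt3* and *Zim1* came from WT female 3 and U9-KO female 4, the libraries with the highest oviduct marker sums. This did not hold for *Mirg*, *Begain*, *Mrpl23*, *Tnni2* or *Usp29*. The part of that tissue in these differences was not tested.

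Of 38 further imprinted genes tested, 15 passed in the sex contrast, 39.5%, beside the 39.0% of all genes given above. 9 were higher in females and 6 in males, and the median difference was −0.05. Together with the neighbours, 69 tested genes held 23 that were higher in females and 11 that were higher in males, beside 22.4% and 16.6% of all genes. The furthest apart among the 38 were *Slc38a4*, an amino acid transporter (−3.40, adjusted p = 1.58e-06), with 44 to 438 normalized counts in females and 8 to 25 in males, and *Asb4* (−2.45, adjusted p = 2.88e-06). *Cdh15* (−2.13, adjusted p = 0.0137) followed, with 77 normalized counts in U9-KO female 1, at most 14 in any other female and at most 2 in males. In the other direction stood *Nnat*, a small membrane protein (1.65, adjusted p = 0.0182), *Slc22a3*, an organic cation transporter (0.99, adjusted p = 0.00174), and *Herc3* (0.67, adjusted p = 4.45e-07). In females 0 of these genes and neighbours passed in the genotype contrast.

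Of 9 tested genes that keep imprints in place 5 were higher in females and 0 in males, beside 22.4% and 16.6% of all genes. *Zfp57*, which holds methylation at imprinted regions in the embryo, had 164 to 587 normalized counts in females and 62 to 115 in males (−1.57, adjusted p = 1.87e-05). *Uhrf1* (−0.98, adjusted p = 0.0222) and *Dnmt1* (−0.50, adjusted p = 0.00701), partners in copying methylation after DNA replication, were also higher in females. The highest 2 values of each of these 3 genes came from WT female 4 and U9-KO female 1, the libraries richest in ovary markers, at 587 and 443 for *Zfp57*, 483 and 385 for *Uhrf1*, and 2005 and 1548 for *Dnmt1*; the part of the ovary in these 3 differences was not tested.

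The receptors and binding proteins of the IGF pathway, through which *Igf2* and *Grb10* act, held 8 of 13 genes that passed, 61.5% beside 39.0% of all genes, with 7 higher in females and 1 in males. *Igfbp3*, which carries IGFs and limits their access to the receptor, had 3156 to 9447 normalized counts in females and 404 to 912 in males (−3.14, adjusted p = 1.17e-09). *Igfbp6* (−1.14, adjusted p = 3.06e-05) and *Igf1r*, the receptor itself (−1.01, adjusted p = 9.68e-05), were higher in females. *Igf1*, the growth factor made by adult fat, was higher in males (0.42, adjusted p = 0.0144).

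Relations between genes across mice were examined within each sex after centring by genotype. For the 5 pairs of domain neighbours in 2 sexes, a family of 10, none passed a Benjamini-Hochberg adjusted p of 0.05. The nearest was *H19* with *Igf2* in males (r 0.895, rho 0.757, exact permutation p = 0.00873 and 0.0571, adjusted p = 0.0873 and 0.571, n = 7), and r was 0.764 without the 2 mice farthest from the median of *H19*. In females the same pair had an r of −0.345 (rho −0.465, permutation p = 0.323 and 0.177, adjusted p = 0.538 and 0.59, n = 10). *Kcnq1ot1* and *Kcnq1* had an r of 0.0874 in females (rho 0.00606, permutation p = 0.811 and 1, adjusted p = 0.901 and 1, n = 10) and −0.581 in males (rho −0.429, exact permutation p = 0.177 and 0.354, adjusted p = 0.498 and 0.708, n = 7). *Kcnq1* and *Cdkn1c* had −0.401 in females (rho −0.334, permutation p = 0.25 and 0.341, adjusted p = 0.5 and 0.708, n = 10) and 0.566 in males (rho 0.321, exact permutation p = 0.199 and 0.498, adjusted p = 0.498 and 0.767, n = 7).

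A wider look at all 45 pairs in both sexes, 90 relations, was added after the data were seen. By Pearson r 1 pair in females and 3 in males passed at an adjusted p of 0.0491 each, and by rank the smallest adjusted p was 0.121. *Mest* and *Peg3*, on different chromosomes, had an r of 0.967 in males (rho 0.821, exact permutation p = 0.00218 and 0.0341, adjusted p = 0.0491 and 0.352, n = 7). In females r was −0.111 (rho −0.115, permutation p = 0.753 and 0.76, adjusted p = 0.853 and 0.884, n = 10), and the difference between the sexes was not tested. *Peg3* had 397, 2103 and 2517 normalized counts in WT males and 1370, 1005, 1293 and 382 in U9-KO males, and WT male 1 and U9-KO male 4 were the lowest of their groups for both genes. Without the 2 mice farthest from the median of *Mest* r was 0.778 (n = 5), and 5 mice are too few for a test that could pass over this many relations. With *Grb10* r was negative in males, −0.937 for *Mest* and −0.907 for *Peg3*, and −0.765 and −0.725 without 2 mice. WT male 1 and U9-KO male 4 had the highest adipocyte marker sums of the males, 576563 and 592317, against 441381 to 569494 in the other 5. U9-KO male 1, the next highest at 569494, had 822 normalized counts of *Mest* and 1370 of *Peg3*. The part of fat cell content was not tested.

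In females *Peg3* and *Meg3* went together (r 0.873, rho 0.842, permutation p = 0.001 and 0.00396, adjusted p = 0.0491 and 0.121, n = 10). Without the 2 mice farthest from the median of *Peg3* r was 0.812 (permutation p = 0.0121, adjusted p = 0.363, n = 8). WT female 3 and U9-KO female 4, with the highest *Peg3*, had 4580 and 4548 normalized counts of *Meg3* and the highest oviduct marker sums. The highest *Meg3*, 4672, was in WT female 4, whose oviduct marker sum was 686. The part of oviduct tissue was not tested.

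**Figure D5:**
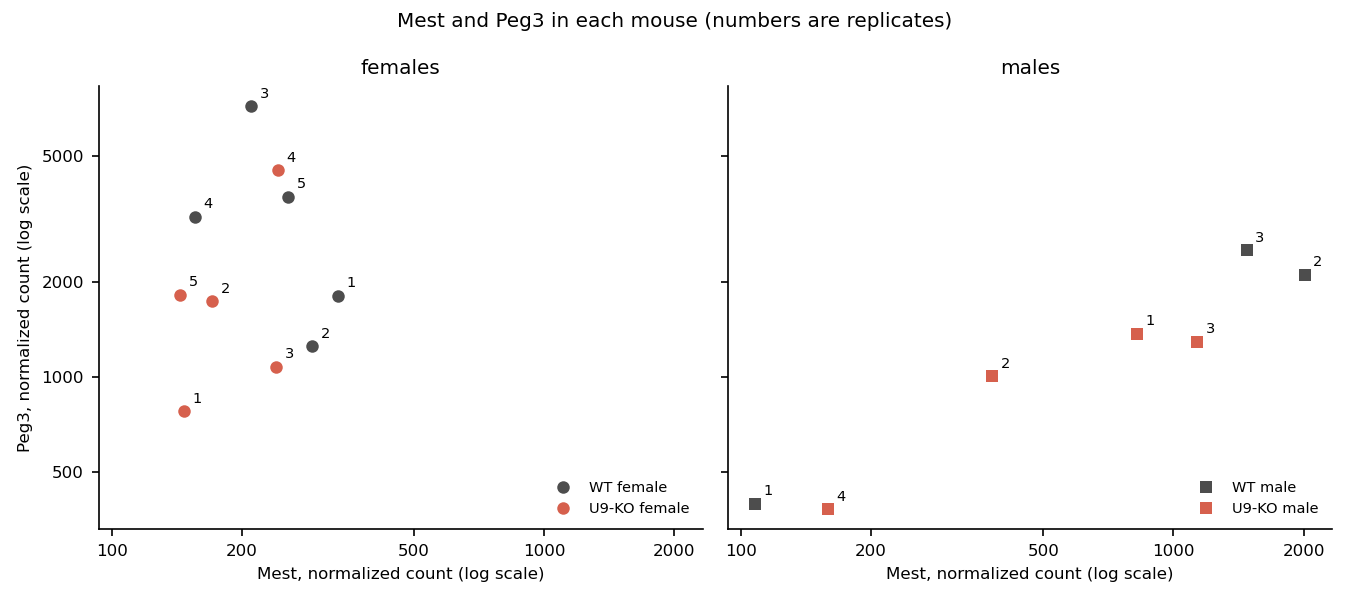
Normalized counts of *Mest* (x) and *Peg3* (y) in each mouse on log scales, females on the left and males on the right; grey is WT, red is U9-KO, and the number beside a point is the replicate. Males spread from 108 to 2009 for *Mest* with *Peg3* rising from 382 to 2517, and WT male 1 and U9-KO male 4 sit apart at the low end, while *Mest* in females stays between 144 and 334 at any level of *Peg3*.

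The genes whose pattern was most like that of 3 of the imprinted genes were found by Pearson r over the 17 mice, centred within each of the 4 groups, among genes with a mean of at least 50 in both sexes; these are descriptions of the same libraries, with no test. For *Kcnq1ot1*, among 12875 genes, they were *Pinx1* (r 0.871), *Gnl2* (0.821) and *Ankrd49* (0.818). For *Mest* they were *Ppp3cb* (0.913), *Nap1l1* (0.905) and *Pkmyt1* (0.889), each with a higher r in males (0.985, 0.984 and 0.950) than in females (0.559, 0.420 and 0.524). For *Igf2* they were *Emp1* (0.928), *Nap1l1* (0.883) and *Mpp7* (0.883), read against the few counts of *Igf2*. Their r with *Igf2* was 0.986, 0.9 and 0.956 in males and 0.552, 0.803 and 0.818 in females.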

How the data were processed

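RNA-seq libraries (stranded, poly(A)-selected, paired-end) of 17 mice were used. The authors trimmed reads, aligned them with STAR 2.7.3a to GRCm38 (versions per the submitters' processing notes), counted them with summarizeOverlaps in Union mode and used DESeq2 1.28.1; whether counting used strand is not given in the sources used here. Deposited values are scores: counts that the authors divided by a size factor and rounded, apparently scaled in each sex separately (median ratio to all 17 libraries 1.03 to 1.06 in females, 0.948 to 0.963 in males). The table of all libraries repeats these values. In 2 male libraries the column header and the sample label differ in replicate number, and the label was followed.

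GENCODE M21 named 55141 of 55401 identifiers. limma 3.58.1 (R 4.3.3; lmFit, eBayes with trend) was run on log2(value + 1) for genes with a total of at least 10, with Benjamini-Hochberg adjustment over all genes and a threshold of 0.05, in each sex and, after rescaling all libraries by median ratios, for sex with genotype as a covariate. The fits were tested on simulated data. Mice of a group differed in at least 24469 genes and counted as separate replicates. Correlations used 100000 permutations in females and all in males (scipy 1.17.1). Members, lists and tests were chosen with earlier results of these data known. Named were the 10 genes, the 3 most abundant neighbours of each domain where they passed, the 3 furthest apart in each direction of each further list, and the 3 most alike genes. Markers of epididymis (2 of 3 tested genes higher in females), muscle (2 of 4), leukocytes (2 of 6 higher in males, 1 in females) and endothelium (3 of 5 higher in males) were also counted in the sex contrast. Beside them, 22.4% of all genes were higher in females and 16.6% in males. Alternatives were other pseudocounts, filters, scalings, robust eBayes, a replicate block and leaving out mice. Equal replicate numbers did not pair mice: same-number correlations of deviations ran from −0.435 to 0.125 within a sex.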

Additional observations from a re-analysis of the deposited data

Results flagged for a closer look

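One value of the 10 genes stood apart in its group. *Peg3* in U9-KO female 4 was at 4498 normalized counts, while the other 4 U9-KO females had 779 to 1818, and its gap to the next value was over the 95% limit of Dixon's test. Of 30 groups of 4 or 5 mice examined, 1 stood apart in this way, and chance gives about 1.5. The same library had the second highest oviduct marker sum, 2585, and the part of that tissue in the *Peg3* value was not tested.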

How the results depend on the processing

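The call counts in females and males were 0 under every other pseudocount, filter, scaling and eBayes setting run, and leaving out 1 mouse gave 0 in females and 0 to 71 in males, with 71 only without WT male 1. With the replicate block the counts were 0 in females, 0 in males and 8604 in the sex contrast, and the block changed no call among the 10 genes. The sex contrast gave 4959 genes in WT mice only and 6018 in U9-KO mice only, against 10263, and the genes of the 10 called higher in males were 0 in WT mice and 2 after quantile normalization; fewer mice entered the first pair. Differences near 0 turned sign. Without both libraries with the highest ovary markers, an alternative chosen after seeing the data, the female genotype difference was −0.084 for *Kcnq1ot1* and 0.016 for *Kcnq1*, and the sex difference of *Kcnq1ot1* was 0.002. The sex difference of *Kcnq1ot1* was 0.10 after quantile normalization and 0.24 in U9-KO mice only, against −0.36 in WT mice only. That of *Kcnq1* was −0.10 on the deposited scale and −0.16 in U9-KO mice only, against 0.21 in WT mice only. Leaving out 1 mouse moved the female genotype difference from −0.069 to 0.10 for *Kcnq1ot1*, −0.10 to 0.09 for *Kcnq1*, −0.20 to 0.084 for *Cdkn1c* and −0.13 to 0.25 for *H19*, and the sex difference from −0.10 to 0.02 for *Kcnq1ot1* and −0.063 to 0.059 for *Kcnq1*. Correlations turned sign without the 2 mice farthest from the median for *Kcnq1ot1* with *Kcnq1* (−0.0858), *Kcnq1ot1* with *Cdkn1c* (0.577), *Kcnq1* with *Cdkn1c* (0.368) and *Dlk1* with *Meg3* (0.321) in females and for *Kcnq1* with *Cdkn1c* (−0.468) and *Dlk1* with *Meg3* (−0.258) in males, and by rank for *Kcnq1ot1* with *Cdkn1c* in females (0.0851); none of these passed in either form. The causes were not tested. Sequencing depth is unknown, and at most 17 counts of *Igf2* and 11 of *H19* in males limit what can be seen of them.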

Other observations

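Some neighbours were named only after their values were seen. *Trpm5*, a cation channel gene that starts at −201.9 kb from the *Kcnq1ot1* start, had 23 to 77 normalized counts in females and 2 to 12 in males, a difference of −2.56 (SE 0.27, limma adjusted p = 8.54e-07). *Slc22a18*, a transporter gene of the same domain, had 37 to 133 in females and 96 to 190 in males (0.94, SE 0.22, adjusted p = 0.00254). *Zim1*, the maternally expressed neighbour of *Peg3*, had 51 to 314 in females and 8 to 52 in males (−2.15, SE 0.42, adjusted p = 0.000532). Its highest value, 314, came from WT female 3, which was also highest for *Peg3* and for oviduct markers.

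*Nnat* varied widely between mice of one group. WT females had 9066, 6082, 3363, 2574 and 10496 normalized counts of it and U9-KO females 893, 3696, 520, 6355 and 5958. Males had 2924, 18815 and 19512 in WT and 9434, 10019, 11144 and 8190 in U9-KO. WT male 1, the lowest WT male for *Mest* and *Peg3*, was also the lowest male for *Nnat*.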
